A study of Mus musculus with 6 samples.

Results

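The regulatory landscape around *Sox2* was described from ATAC-seq, an assay in which accessible DNA is cut and tagged by a transposase, in neural stem cell (NSC) cultures of the adult mouse subependymal zone (SEZ). The locus was taken as the 500 kb of chromosome 3 from 34.4 to 34.9 Mb (GRCm38), which holds *Sox2* and the 3' part of its long noncoding neighbour *Sox2ot*. The called peaks of the 6 libraries in this window numbered 139 and merged into 37 of the 120143 regions of the genome, a region being a run of peaks that overlap by at least 1 bp. All cultures came from mice of 10 weeks, kept on a C57BL/6J background, that were homozygous for a CRISPR-Cas9 deletion of the *Sox2* enhancer *Srr2* (*Srr2* del/del). Proliferating cultures (PROLIF) had spent 2 days in vitro with FGF on Matrigel, and differentiating cultures (DIFF) a further 1 day without mitogens in medium with 2% FBS. Each state had 3 libraries, replicates 1, 2 and 4. The study kept strains from separate founders, and the labels do not say which gave these cultures. No wild-type library was analysed here, so every comparison below is between states within the mutant, and nothing below measures the effect of the deletion. In a bulk library, fewer cells with an accessible site and less accessibility per cell cannot be told apart.

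*Sox2* encodes an HMG-box transcription factor that keeps neural stem and progenitor cells in an undifferentiated state, and its dose matters for their fate. The gene has no intron and lies within an intron of *Sox2ot*, a noncoding gene transcribed in the same direction. It has few close protein-coding neighbours, and enhancers spread through the surrounding noncoding DNA, upstream, just downstream and at far downstream sites, are known to drive it in different cell types. SOX2 often binds next to a POU-domain partner, at a joined SOX and POU element, and *Srr2* is known for such an element.

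The sequences on which the results below turn are given first, from the RefSeq copy of GRCm38.p6, plus strand, and not from the mutant. Capitals mark matches on either strand to the SOX motifs ACAAAG and ACAATG, to the E-box motifs CAGCTG and CAGATG, or to the joined element. The first is the 250 bp before the RefSeq start of *Sox2*, within its promoter peak (chr3:34649745-34649994). The next pair are the 201 bp around the summits of the regions 117.8 and 208.8 kb upstream of *Sox2* (chr3:34532552-34532752 and chr3:34441458-34441658), which separated the states by percentile, fold enrichment and pileup, in opposite directions. Another surrounds the summit 84.8 kb upstream (chr3:34565466-34565666), called in all PROLIF libraries and weakly in 1 DIFF library. Then follow the only DIFF-only region, 29.6 kb downstream (chr3:34679883-34680083), and the region 101.4 kb downstream (chr3:34751696-34751896). The last holds the joined element 3.644 kb downstream of the *Sox2* start (chr3:34654009-34654100).
*Sox2* promoter: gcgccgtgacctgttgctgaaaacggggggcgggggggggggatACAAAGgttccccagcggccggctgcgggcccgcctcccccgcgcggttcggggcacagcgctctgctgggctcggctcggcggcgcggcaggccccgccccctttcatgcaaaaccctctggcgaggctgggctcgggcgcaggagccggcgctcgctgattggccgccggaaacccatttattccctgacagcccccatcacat
117.8 kb upstream: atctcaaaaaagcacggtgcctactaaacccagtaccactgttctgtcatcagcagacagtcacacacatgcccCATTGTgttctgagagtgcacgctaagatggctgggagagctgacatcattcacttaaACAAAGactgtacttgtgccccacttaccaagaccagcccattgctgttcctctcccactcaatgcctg
208.8 kb upstream: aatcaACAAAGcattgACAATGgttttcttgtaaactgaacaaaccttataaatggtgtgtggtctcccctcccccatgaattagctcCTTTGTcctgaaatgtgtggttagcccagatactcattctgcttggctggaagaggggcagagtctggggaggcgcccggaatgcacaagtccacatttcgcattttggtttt
84.8 kb upstream: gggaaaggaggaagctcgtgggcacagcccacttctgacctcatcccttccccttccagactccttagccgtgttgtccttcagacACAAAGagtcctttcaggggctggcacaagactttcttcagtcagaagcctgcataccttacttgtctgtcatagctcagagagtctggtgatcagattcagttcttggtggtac
29.6 kb downstream: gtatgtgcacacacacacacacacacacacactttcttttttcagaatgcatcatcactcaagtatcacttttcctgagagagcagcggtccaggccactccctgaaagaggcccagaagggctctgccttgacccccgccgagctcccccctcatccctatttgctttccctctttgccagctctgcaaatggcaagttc
101.4 kb downstream: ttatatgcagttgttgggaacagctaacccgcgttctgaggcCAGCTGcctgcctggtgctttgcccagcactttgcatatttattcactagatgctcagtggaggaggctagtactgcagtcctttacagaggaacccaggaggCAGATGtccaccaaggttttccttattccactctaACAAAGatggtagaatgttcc
Joined element: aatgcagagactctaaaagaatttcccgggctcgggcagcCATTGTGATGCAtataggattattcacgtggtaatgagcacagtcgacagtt

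The lists held from 60006 to 88039 peaks. The background pileup (the reads expected at an unenriched position, which moves with sequencing depth) was 2.97, 2.94 and 2.85 reads in PROLIF replicates 1, 2 and 4 and 3.63, 2.96 and 6.01 reads in DIFF replicates 1, 2 and 4. DIFF 4 had the highest background and the longest list; read depth itself is unknown from these lists. A library without a peak in a region had too little signal to pass there, which does not make the chromatin closed. The cultures were checked against promoter peaks, defined as peaks within 3 kb of an annotated start site. Among protein-coding genes, 64.4% had such a peak in all 6 libraries. The neural stem and progenitor markers *Sox2*, *Nes*, *Sox9*, *Fabp7*, *Slc1a3* and *Vim* all did (6 of 6), at percentiles from 53.9 to 99.3. For neurons this held for 3 of 4 markers, for oligodendrocytes for 2 of 4 and for microglia for 2 of 5 (*Csf1r* and *P2ry12*). The neuron marker *Rbfox3* and the microglia markers *Aif1* and *Tmem119* had a promoter peak in 5 libraries, and *Mog* in 1. The microglia peaks ranked at percentiles from 8.80 to 78.1. *Mag* and *Cx3cr1* had no promoter peak in any library. Of 4 endothelial markers, *Cldn5*, *Cdh5* and *Tek* had none, and *Pecam1* had a peak in the 3 PROLIF libraries and in no DIFF library. An accessible promoter is not expression, and the part of other cell types in the results below was not tested.

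The *Sox2* locus was rich in called regions. Across 5441 windows of 500 kb the median was 20 regions, and 83.7% of windows held fewer than the 37 found here. Of these, 21 lay upstream of the *Sox2* start and 16 downstream. Peaks were found in all 6 libraries in 15 regions (40.5%), beside 33.4% of regions genome-wide, in 1 library only in 12 (32.4%, beside 29.7%), and in between 2 and 5 libraries in 10. The regions held by 1 library were uneven: DIFF 4 alone accounted for 7, DIFF 1 and DIFF 2 for 2 each and PROLIF 1 for 1. Without DIFF 4 the locus would have 30 regions. *Sox2* is the only protein-coding gene of the 17 genes annotated in the window; the nearest others are *Dnajc19*, 569 kb upstream of the *Sox2* start, and *Atp11b*, 1071 kb past the end of *Sox2ot*. The map of peaks by distance shows the called regions gathered upstream of *Sox2* and in the first 41.8 kb after it, and thin beyond.

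**Figure D1:**
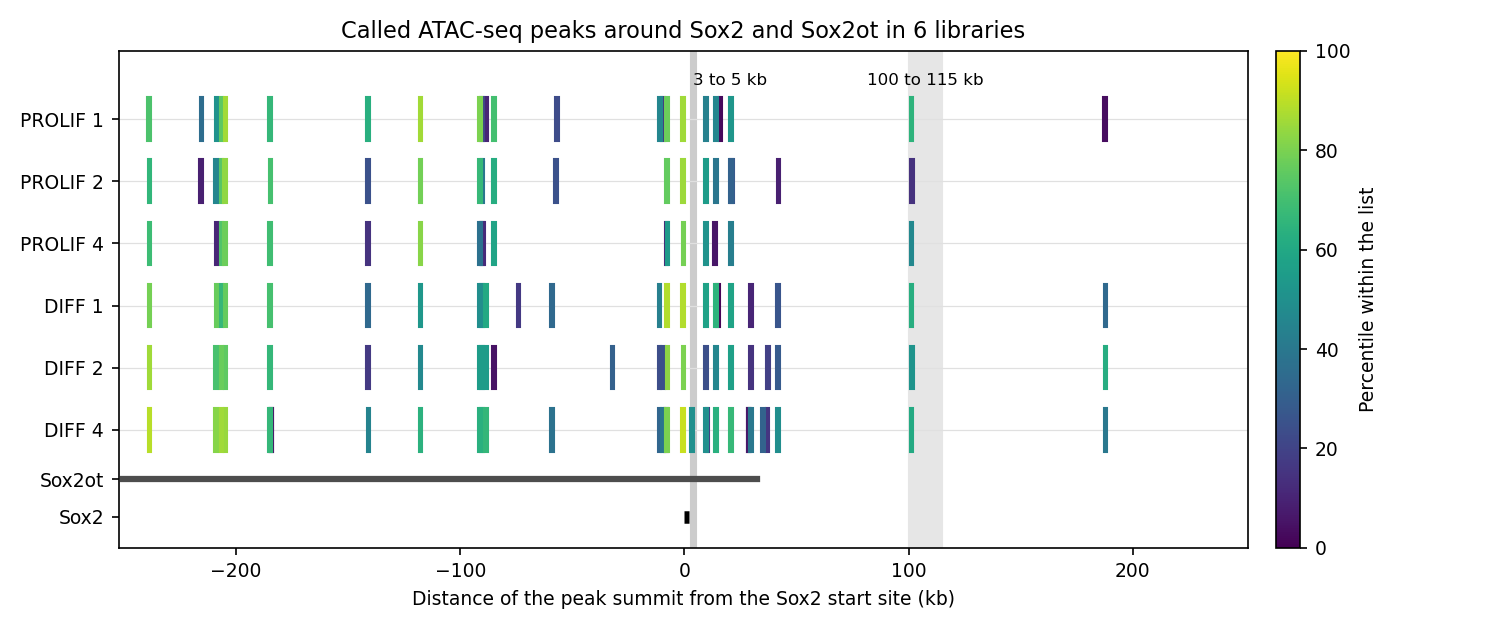
Called peaks by distance of the summit from the *Sox2* start (kb, x axis) in the 6 libraries (rows). Colour gives the percentile of the peak within its own list, bars are drawn wider than the peaks so that they can be seen, with the best ranked on top where they overlap, grey bands mark 3 to 5 kb and the 15 kb from 100 kb downstream, and the lower tracks show *Sox2ot*, which begins outside the window, and *Sox2*. The 15 columns filled in every row include the *Sox2* promoter and the region 101.4 kb downstream, while the band at 3 to 5 kb is filled in DIFF 4 alone.

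To ask whether the locus carried more called peaks in either state, peaks and covered length were counted per library. PROLIF libraries had 23, 20 and 18 peaks and DIFF libraries 23, 24 and 31, in the order of replicates 1, 2 and 4. The states met at 23 peaks. The means were 20.3 ± 2.52 and 26.0 ± 4.36 peaks (SD, n = 3), a difference of 5.67 that the test did not set apart from the spread between libraries (two-sided exact permutation test, p = 0.2; the smallest p that 3 against 3 allows is 0.1). Peaks covered 10.4, 8.92 and 6.61 kb in PROLIF and 8.82, 9.10 and 11.1 kb in DIFF (exact permutation p = 0.5), and these ranges overlapped. The difference in number was 3.17 peaks without DIFF 4 and 7.17 without DIFF 1 (exact permutation p = 0.3 and 0.1). It was 4.33 with all lists cut to the length of the shortest (exact permutation p = 0.1) and -0.333 among the strongest 20000 peaks of each list (exact permutation p = 1). The numbers carried in the peak names, whose meaning is not given, fall into a lower set (227, 231 and 297, for PROLIF 1, DIFF 1 and PROLIF 4) and a higher set (606, 610 and 614, for DIFF 2, DIFF 4 and PROLIF 2). The difference was 2.5 peaks within the lower and 7.5 within the higher set.

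Relative to the length of each list, the order was clearer. For every 10000 peaks of its list, the locus held 2.78, 3.00 and 3.00 peaks in PROLIF and 3.23, 3.39 and 3.52 in DIFF, without overlap. The difference of 0.453 had the smallest p the design allows (exact permutation p = 0.1). This measure was chosen after the values were seen, and it turned to -0.167 among the strongest 20000 peaks.

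Upstream of *Sox2*, the body of *Sox2ot* held 20 regions, 10 of them called in every library. PROLIF libraries had 16, 13 and 11 of these 20 regions and DIFF libraries 14, 15 and 15 (exact permutation p = 0.6), and these counts overlapped. The outermost region, 238.7 kb upstream, lay at percentiles 71.8, 65.9 and 68.4 in PROLIF and 79.1, 85.7 and 89.2 in DIFF. A percentile is the rank of a region's best peak by −log10 p among the peaks of its own list, with the strongest peak at 100. All DIFF libraries stood above all PROLIF libraries there, but its summit pileup, in multiples of the library's background, overlapped between the states, at 13.1, 10.5 and 10.5 against 12.4, 20.6 and 16.3.

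Between 208.8 and 204.8 kb upstream, 3 regions lay close together. The region 208.8 kb upstream (chr3:34441235-34442165, in an intron of *Sox2ot*) ranked at percentiles 50.6, 46.0 and 10.8 in PROLIF and 76.8, 71.1 and 81.8 in DIFF. Its summit pileup was 13.1, 11.6 and 5.97 times background in PROLIF and 17.6, 21.0 and 17.6 times in DIFF. Every DIFF library stood above every PROLIF library on both measures and by fold enrichment, with a DIFF mean of 1.83 times the PROLIF mean for pileup (exact permutation p = 0.1). Its neighbours 206.5 and 204.8 kb upstream were among the strong regions of the locus in every library, at percentiles from 66.5 to 85.8 and from 75.3 to 86.2, and their percentiles overlapped between the states. By fold enrichment, however, the region 204.8 kb upstream was higher in every PROLIF library, at 9.64, 8.24 and 7.81 against 5.76, 6.22 and 6.79 in DIFF. Its percentile difference, DIFF minus PROLIF, was -3.77 points (exact permutation p = 0.3). With q of at most 0.01 and 0.001 it was -4.16 and -4.23 points (exact permutation p = 0.3 in each). Leaving out 1 library gave -6.63 to -1.91 points (exact permutation p = 0.2 to 0.6). Lists of equal length gave -6.80 points and ranking by fold -11.5 (exact permutation p = 0.1 in each). Ranking among regions in all 6 libraries gave -9.85 and the strongest 20000 peaks -20.4 (exact permutation p = 0.1 in each). The region 204.8 kb upstream was also one of only 2 in the locus, with the *Sox2* promoter, that stayed in every list when each was reduced to its strongest 20000 peaks.

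The next regions toward *Sox2* lay 184.8 and 141.1 kb upstream. The first was steady in rank, at percentiles 66.4, 70.5 and 69.3 in PROLIF and 70.5, 66.5 and 66.7 in DIFF. Its pileup was 12.5, 11.9 and 11.2 times background in PROLIF and 9.63, 11.2 and 7.32 times in DIFF; the lowest PROLIF value lay only just above the highest DIFF value. Pileups without overlap, higher in PROLIF, were common genome-wide (17.0% of regions in all 6 libraries, against 6.31% higher in DIFF). The second was weak and variable, from percentile 14.6 to 63.2 in PROLIF and from 16.9 to 44.8 in DIFF.

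The region 117.8 kb upstream (chr3:34532363-34532851, in an intron of *Sox2ot*) was the one region called in all 6 libraries that ranked higher throughout PROLIF. Its percentiles were 86.1, 78.7 and 82.2 in PROLIF and 52.8, 46.9 and 63.9 in DIFF. Its pileup was 21.9, 14.6 and 15.1 times background in PROLIF and 6.60, 7.44 and 6.82 times in DIFF. The DIFF mean was 0.404 times the PROLIF mean, with every PROLIF library above every DIFF library (exact permutation p = 0.1). By percentile this region ranked with the *Sox2* promoter itself in PROLIF, and in DIFF it did not. By pileup it lay below the promoter in every PROLIF library too, where the promoter had 28.9, 24.1 and 17.2 times background.

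Around 90 kb upstream, where *Sox2ot* has 5 annotated start sites, 4 regions lay close together. Those 91.3 and 90.3 kb upstream had a peak in every library, and each of the 5 starts had a peak within 1 kb in all 6. The region 91.3 kb upstream ranged from percentile 37.4 to 80.2 in PROLIF and from 49.2 to 63.5 in DIFF, and the region 90.3 kb upstream reached at most 39.1 in PROLIF and lay from 35.6 to 53.3 in DIFF; neither separated the states. The remaining pair differed in opposite directions in occupancy. The region 88.5 kb upstream had a peak in all DIFF libraries, at percentiles 60.2, 54.7 and 66.2, and in PROLIF only in replicate 1, at 10.3. The region 84.8 kb upstream (chr3:34565445-34566161), at an exon of the noncoding gene *Gm42695*, had a peak in all PROLIF libraries, at percentiles 70.1, 62.4 and 58.2, and in DIFF only in replicate 2, at 4.71. It was thus missing from 2 DIFF libraries, DIFF 4 with the longest list included.

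Of the other 8 *Sox2ot* starts in the window, 5 had no peak within 1 kb in any library, and those 12.1, 11.9 and 14.8 kb from *Sox2* had one in 1, 4 and 5 libraries, the last being downstream. The other *Sox2ot* starts lie 453.5 to 546.1 kb upstream, outside the window. Nearer to *Sox2*, the region 7.7 kb upstream had a peak in all 6 libraries, at percentiles 77.5, 75.9 and 54.0 in PROLIF and 88.7, 82.9 and 80.2 in DIFF. These ranks did not overlap, although PROLIF 1 and DIFF 4 stood close, and its pileups of 18.5, 15.0 and 8.08 times background in PROLIF and 22.0, 23.0 and 13.5 times in DIFF did overlap. The rest of the upstream regions were seen in 1 to 4 libraries at percentiles of at most 45.8. Among them the region 11.0 kb upstream had a peak in all DIFF libraries and in PROLIF 1, and those 215.5 and 57.2 kb upstream in PROLIF 1 and 2 only.

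At *Sox2* itself (ENSMUSG00000074637.7, chr3:34650405-34652461, plus strand), each library had 1 peak at the promoter. It ranked at percentiles 85.8, 85.2 and 79.1 in PROLIF and 88.5, 80.1 and 91.7 in DIFF, and these overlapped. The difference of 3.37 percentile points was within the spread between libraries (exact permutation p = 0.4); without DIFF 2 it was 6.71, without DIFF 4 0.904, and ranked by fold enrichment -4.56. The summit held 86, 71 and 49 reads in PROLIF and 100, 77 and 170 in DIFF, which is 28.9, 24.1 and 17.2 times background in PROLIF and 27.5, 26.0 and 28.3 times in DIFF (exact permutation p = 0.4). By this pileup the promoter was the strongest region of the locus in 4 libraries and second in PROLIF 1 and 2, where the region 204.8 kb upstream came first with 31.0 and 24.5 times background. In PROLIF 4 the order was the reverse, by 17.2 to 16.9 times background. The 3 genes whose promoter percentiles came closest to those of *Sox2* over the 6 libraries, of 14125 compared, were *1500011B03Rik*, *Kcna2* and *Trim37* (root mean square differences of 1.32, 1.60 and 1.71 percentile points).

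The *Sox2* promoter peak differed between the states in extent. It was 1434, 1358 and 1145 bp wide in PROLIF and 1009, 878 and 1042 bp in DIFF. The mean of 1312 ± 150 bp in PROLIF lay 336 bp above the DIFF mean of 976 ± 86.7 bp (SD, n = 3), with no overlap (exact permutation p = 0.1). Among promoter regions with a peak in all 6 libraries, 7.39% were wider in every PROLIF library. The peak reached 1531, 1472 and 1392 bp upstream of the GENCODE start in PROLIF but only 958, 944 and 1005 bp in DIFF, while its downstream end lay further downstream in every DIFF library. Summits lay 456 to 550 bp upstream of the GENCODE start, which is 46 to 140 bp upstream of the RefSeq start (34649995). The background pileups were 2.85 to 2.97 reads in PROLIF and 3.63, 2.96 and 6.01 reads in DIFF 1, 2 and 4. The local background, the reads expected around this peak, was 7.47, 6.64 and 5.09 in PROLIF and 12.3, 9.90 and 18.6 in DIFF. It did not overlap between the states either. The part of depth and of local background in the width was not tested. The width was examined after its values were seen.

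**Figure D2:**
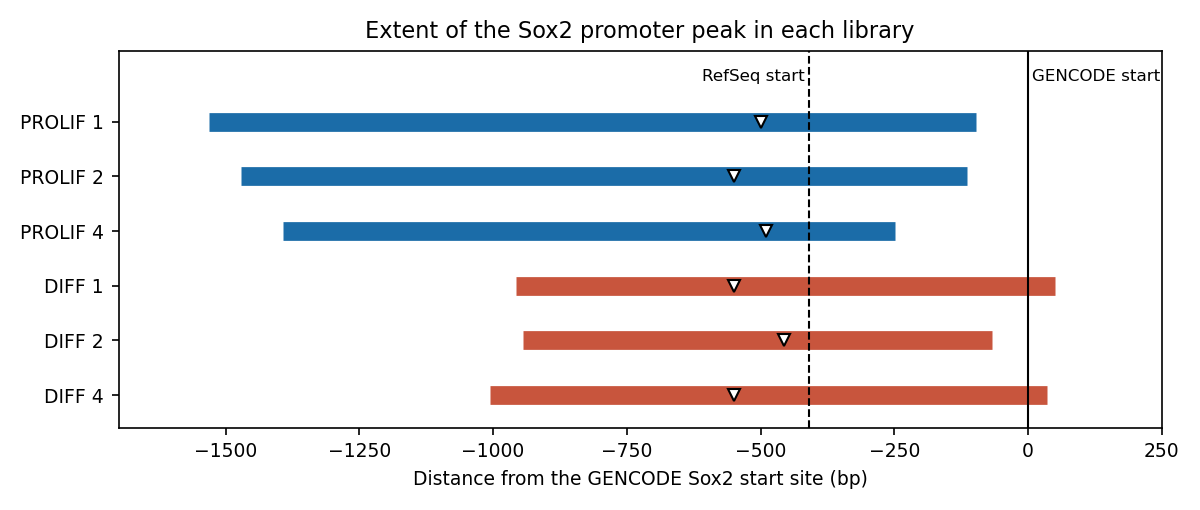
Extent of the *Sox2* promoter peak in each library, as distance from the GENCODE start (bp, x axis), with triangles at the summits and vertical lines at the GENCODE (solid) and RefSeq (dashed) starts. Bars reach 1392 to 1531 bp upstream in PROLIF (blue) and 944 to 1005 bp in DIFF (red), while the summits of all 6 libraries lie 456 to 550 bp upstream.

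*Srr2* lies about 4 kb downstream of the *Sox2* start; the study prints its position on another build and chromosome, which was not converted, so 3 to 5 kb downstream was examined in its place and the deletion was not mapped. All libraries came from mice homozygous for the deletion, so a missing peak in this window does not describe an intact *Srr2*. No PROLIF library, nor DIFF 1 or DIFF 2, had a peak there. DIFF 4 had 1 (chr3:34653873-34654056), at percentile 49.8 and 9.81 times background, so the only call there rests on the library with the highest background. Against the local background of 19.6 reads, the 59 reads at its summit gave a fold enrichment of only 2.91. In the reference, the joined SOX and POU element stands at 34654049 to 34654060 (plus strand) in that window, across the downstream edge of that peak. The element is rare: it occurred within 100 bp of the summit in 0.0175% of all regions and in none of the locus, and the only other copy in the 500 kb, 150.7 kb downstream on the minus strand, had no peak in any library.

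Downstream of that window, the last stretch of *Sox2ot*, whose annotation ends 32.2 kb past the *Sox2* start, held 9 regions, 3 of them called in every library. PROLIF libraries had 4, 3 and 3 of the 9 and DIFF libraries 5, 4 and 7 (exact permutation p = 0.2). The ranges met at 4. The region 9.6 kb downstream was of middle rank and overlapped between the states, at percentiles 43.7, 54.8 and 51.5 in PROLIF and 57.6, 24.2 and 49.8 in DIFF, although its fold enrichment was higher in every PROLIF library (4.15, 5.13 and 5.15 against 3.88, 3.02 and 3.20). The region 14.0 kb downstream, across the start of the annotated gene *Gm42693*, ranked at percentiles 45.8, 39.4 and 5.61 in PROLIF and 64.6, 46.0 and 63.5 in DIFF. PROLIF 1 and DIFF 2 all but touched, so the separation there is slight. The region 20.8 kb downstream ranked at 52.4, 31.1 and 42.2 in PROLIF and 57.9, 56.6 and 67.0 in DIFF, again with all DIFF libraries above, though its pileup overlapped.

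Only 1 region of the locus was DIFF-only, with a peak in each DIFF library and in no PROLIF library. It lies 29.6 kb downstream (chr3:34679724-34680325), in an exon of *Sox2ot*, and ranked at percentiles 10.4, 14.5 and 40.2, at 3.85, 4.73 and 4.32 times background. Its ranks were low in DIFF 1 and 2 and middling in DIFF 4. No region was PROLIF-only. Genome-wide 3.47% of regions were DIFF-only and 1.78% PROLIF-only, so a locus of 37 regions stood near the background on both counts. Without PROLIF 1 the DIFF-only regions numbered 4, and without PROLIF 4 the PROLIF-only regions numbered 2. The genome-wide shares were not counted with a library left out, so these last counts have no background beside them.

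Past the end of *Sox2ot* the map thinned. Between it and 100 kb there were 4 regions, none in all 6 libraries; PROLIF libraries had 0, 1 and 0 of them and DIFF libraries 1, 2 and 3 (exact permutation p = 0.2). Of these, the region 41.8 kb downstream had a peak in all DIFF libraries, at percentiles 26.5, 28.3 and 48.8, and in PROLIF 2, at 8.73. No library had a peak over the next 59.0 kb. The far downstream control region then stood alone. In the 15 kb that start 100 kb downstream (chr3:34750405-34765405), each library had exactly 1 peak. All 6 peaks fell in the same region, 101.4 kb downstream (chr3:34751486-34751903), outside any annotated gene and 20279 bp from the nearest annotated start site. The rest of the 15 kb held no peak in any library. Whether this region is a known control element was not tested.

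That region ranked at percentiles 64.5, 14.3 and 46.8 in PROLIF and 62.5, 51.6 and 60.6 in DIFF. Its pileup was 10.8, 4.42 and 7.03 times background in PROLIF and 7.98, 8.12 and 6.32 times in DIFF. The DIFF mean was 1.01 times the PROLIF mean (exact permutation p = 1 for pileup and 0.4 for percentile), and the PROLIF values, with PROLIF 1 highest and PROLIF 2 lowest of all, spread around the DIFF values. Beyond it no library had a peak for 86.1 kb. The last region, 187.8 kb downstream within the noncoding gene *Gm21388*, had a peak in all DIFF libraries, at percentiles 33.7, 62.3 and 40.2, and in PROLIF 1, at 3.32.

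Across the 15 regions called in every library, the percentiles did not overlap between the states in 6. DIFF was higher in 5 (238.7, 208.8 and 7.7 kb upstream, 14.0 and 20.8 kb downstream) and PROLIF in 1 (117.8 kb upstream). Genome-wide, 21.1% of such regions were higher in DIFF and 11.7% in PROLIF. The median difference, DIFF minus PROLIF, was 3.37 percentile points over the 15 regions and 2.25 over all 40164 regions in all 6 libraries, and 9 of the 15 were higher in DIFF, beside 63.2% of all. As a ratio of pileups over background, DIFF over PROLIF, the median was 1.06 in the locus and 0.923 over 39636 regions genome-wide. By this ratio 9 of the 15 were higher in DIFF, beside 38.4% genome-wide. Only the regions 117.8 and 208.8 kb upstream were separated by percentile, fold enrichment and pileup together. By fold enrichment alone, the regions 204.8 kb upstream and 9.6 kb downstream were higher in PROLIF as well, so 3 of 15 were higher in PROLIF and 1 in DIFF, beside 14.3% and 7.20% genome-wide. By all measures together, 8.99% of regions genome-wide were separated in favour of PROLIF and 4.43% in favour of DIFF, so 1 of 15 in each direction stood near the background. No region can reach a p below 0.1 in this design, so these separations are descriptions of the 6 libraries. In the plot of the 15 regions, most pairs of states overlap or touch, and only the regions 117.8 and 208.8 kb upstream are apart in both panels.

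**Figure D3:**
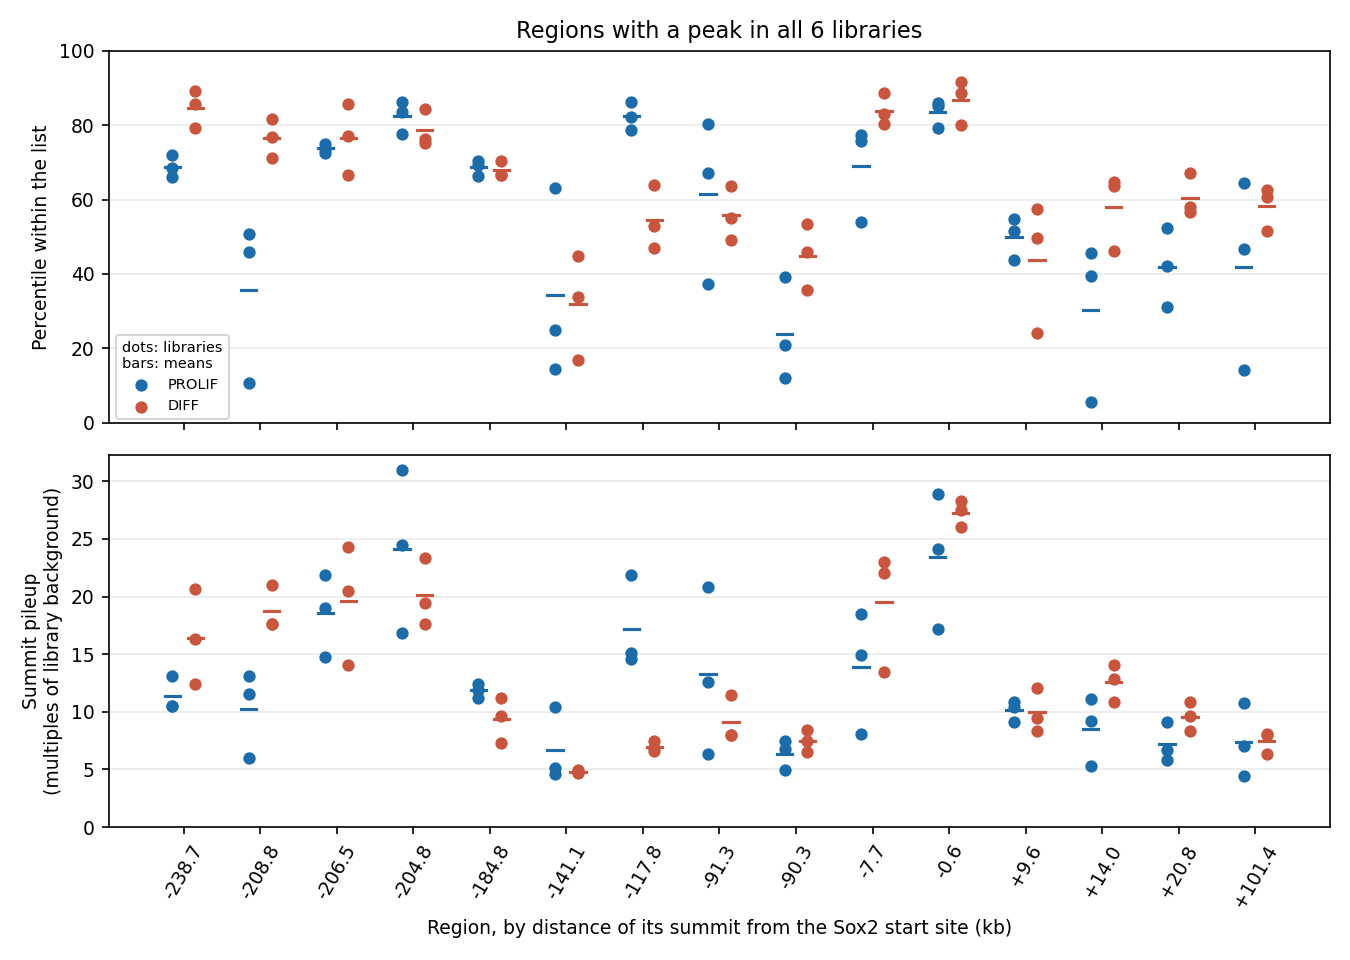
Percentile (upper panel) and summit pileup in multiples of the library's background (lower panel) of the 15 regions with a peak in all 6 libraries, by distance from the *Sox2* start (kb, x axis; negative is upstream), with dots for libraries and bars for the means of PROLIF (blue) and DIFF (red). At -117.8 kb the PROLIF dots lie above all DIFF dots in both panels (pileup 14.6 to 21.9 against 6.60 to 7.44 times background), and at -208.8 kb the DIFF dots lie above (17.6 to 21.0 against 5.97 to 13.1).

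The sequence around the summits was described by short motifs, on both strands in the 201 bp centred on the summit. A SOX motif (ACAAAG or ACAATG), the kind of site SOX2 binds, was found in 17 of the 37 regions (45.9%), beside 29.2% of 119719 regions genome-wide. Of the 15 regions called in all libraries, 9 held it. The genome-wide share among regions called in all libraries was not counted, so that number has no background beside it. The regions 208.8 and 117.8 kb upstream held 3 and 2 copies, as printed above, and the promoter and the regions 84.8 kb upstream and 101.4 kb downstream 1 each. The motif of nuclear factor I was found in 8 regions (21.6%, beside 18.3%), that of AP-1 in 3 (8.11%, beside 5.76%), the E-box CAGCTG in 6 (16.2%, beside 19.6%) and CAGATG in 3 (8.11%, beside 17.3%). The POU octamer was found in 1 region (2.7%, beside 1.9%) and the CTCF core in none, beside 4.42% of regions genome-wide. A match is a description of these letters and not a site of binding. GC content had a median of 49.3% over the 37 windows, close to 50.2% genome-wide, with the *Sox2* promoter highest at 75.1%.

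Factors that the study ties to SOX2 or its enhancers were looked up as context. Of 9 such genes, 7 had a promoter peak in all 6 libraries, beside 64.4% of protein-coding genes. Among them were the related genes *Sox1* and *Sox3*, the POU-domain genes *Pou3f1* and *Pou3f2*, which encode neural partners of SOX2, and the progenitor factors *Pax6* and *Olig2*. *Pou3f2* ranked at percentiles 96.5 to 98.5 and *Sox3* at 73.8 to 84.4. The pluripotency genes *Pou5f1* and *Nanog* had no promoter peak in any library.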

How the data were processed

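ATAC-seq peak lists of 6 *Srr2* del/del libraries, 3 PROLIF and 3 DIFF, were analysed, grouped by the state and replicate number in the labels. The authors clipped adapters (Cutadapt), trimmed (Trimmomatic), mapped to GRCm38 (Bowtie2), marked duplicates (Picard) and used MACS2 for narrow peaks in each library, with no model and a false discovery rate of 0.05. Software versions, the read extension, any blacklist and any transposase shift are not given in the sources used here; each can move peak edges. The labels give proliferating cultures 2 days in vitro, the series' design text another time.

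Positions come with a score, a fold enrichment, a p-value and a q-value in each deposited list. The score deposited by the authors equals 10 times the −log10 q, cut to a whole number, and was not used further. The fold enrichment, a ratio to local background, and the −log10 p-value deposited by the authors were used to rank peaks within a list. The deposited q-value served only as a stricter cut. Fold enrichments were also compared directly between libraries, where regions are said to be separated or higher by fold enrichment. Those values are not ranks, and the part of depth and local background in them was not tested. Read totals were not used. Pileup and local background were solved from each fold and p under the caller's Poisson formulas (whole within 0.05 for at least 99.9891% of peaks used), and percentile 1 of the local backgrounds is a library's background pileup.

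Peaks overlapping by 1 bp or more were merged over the whole genome. Distances run from the GENCODE M21 *Sox2* start. States were compared by two-sided exact permutation tests over libraries. The labels give both states replicates 1, 2 and 4 without saying what a number shares, so the replicate block was an alternative only. The replicates are called biological, but nothing says that those of a state came from separate animals, so p-values measure the spread between these libraries.

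Named regions were those in all 6 libraries, of 1 state, within 5 kb of *Sox2* or in the 15 kb from 100 kb downstream, with others by count and, where singled out, chosen after their values were seen. The locus, lists and tests were chosen with earlier results of these data known. The promoter sequence table held *Sox2* but not *Sox2ot*. Some planned genes are not reported here. Scripts were tested on simulated data. Python 3.11.15, numpy 2.4.6, scipy 1.17.1, pandas 2.3.3, pysam 0.24.0, matplotlib 3.10.9 and samtools 1.23.1 were used.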

Additional observations from a re-analysis of the deposited data

How the results depend on the processing

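No test of the locus passed 0.05 under any setting, since the exact permutation test of 3 libraries against 3 cannot go below p = 0.1, so stability rests on directions and counts. With the strongest 20000 peaks of each list, the differences, DIFF minus PROLIF, turned to -0.333 peaks, -280 bp covered and -0.167 peaks per 10000; regions in all 6 libraries fell to 2, PROLIF-only regions were 1, DIFF-only regions 0, regions ranking higher in DIFF 0 and libraries with a peak at 3 to 5 kb 0. That setting keeps fewer peaks by construction. With q of at most 0.001, PROLIF-only regions were 1, DIFF-only 2 and regions ranking higher in DIFF 3. With lists cut to the shortest (60006 peaks), they were 1 PROLIF-only and 3 DIFF-only, with 2 ranking higher in PROLIF. Asking a library's peaks to cover 50% of a region left 4 regions in all 6 libraries and gave 4 DIFF-only. For counts of regions by state, genome-wide shares were counted only with the main setting and the replicate block. The counts under the other settings have no such share beside them. Ranking by fold enrichment turned the *Sox2* promoter difference to -4.56 percentile points, with 2 regions higher in PROLIF and 2 in DIFF; ranking only among regions in all 6 libraries gave 2 higher in PROLIF. The replicate block gave 3 PROLIF-side and 6 DIFF-side regions (beside 6.29% and 11.1% of regions genome-wide; a region counts if gained in at least 2 pairs and lost in none) and, for the exact sign-flip tests of the 3 pairs, whose smallest p is 0.25, p = 0.5 for peak number, 0.75 for covered length, 0.75 for the promoter percentile and 0.25 for its width and for peaks per 10000. The labels do not say that a number marks a shared culture. Deviations of the percentile from the state mean over 39147 autosomal regions correlated at 0.0553, 0.153 and 0.0138 for replicates 1, 2 and 4 and at -0.111 to 0.0597 for different numbers, and only PROLIF 2, DIFF 2 and DIFF 1 correlated best with their own number. The causes of these shifts were not tested.

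Leaving out each library in turn gave differences of 3.17 to 7.17 peaks, 20.8 (without PROLIF 4) to 1923 bp (without PROLIF 1), 0.380 to 0.530 peaks per 10000, 0.904 to 6.71 percentile points at the *Sox2* promoter and -420 to -275 bp in its width. It gave 0 to 2 PROLIF-only and 1 to 4 DIFF-only regions, 1 to 2 regions higher in PROLIF and 5 to 7 in DIFF, always 15 regions in all libraries, a difference of 0 peaks in the 15 kb from 100 kb downstream, and 0 to 1 libraries with a peak at 3 to 5 kb. The difference of 0 was fixed in advance, since each library had 1 peak there. No region of the locus had a peak in exactly 5 libraries, so the 15 could change only where merging changed. Genome-wide shares were not counted with a library left out. The 6 regions without overlap kept their direction under each alternative in which all the libraries used had a peak there, from -45.7 to -24.0 percentile points 117.8 kb upstream and from 28.3 to 48.2 points 208.8 kb upstream. Leaving out a library or pairing the replicates could not turn these directions, because the states did not overlap. The same holds for the promoter width and for peaks per 10000. Only the other alternatives could have turned them. The alternatives on the promoter width, on peaks per 10000 and on single regions were chosen after seeing the data. Depth, unknown from these lists, limits which weak peaks a library can call.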
